A study of Mus musculus with 9 samples.

Results

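The Notch pathway was followed through 37 genes, listed by name and matched to the gene names of a mouse expression array. By the array's own names 36 of the 37 were found, and Rbpj was found through its accession because the array carries an older symbol for it. Together they held 58 of the array's 41174 non-control probes. Of the 37 genes, 36 were bright enough to be tested, among 24899 genes tested in all. The exception was Dll3, a ligand-like protein that inhibits Notch in its own cell, which was well above background on 1 SVZ array, 1 hippocampal Sox2-GFP array and no DCX-DsRed array.

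RNA came from fluorescence-sorted brain cells of 2 transgenic mouse reporter lines aged 6 to 8 weeks. The first line makes green fluorescent protein driven by the Sox2 promoter; Sox2 is a transcription factor found in neural stem cells and also in astrocytes. The second makes the red protein DsRed under the promoter of Dcx, a microtubule-binding protein of newborn neurons. The groups were SVZ Sox2-GFP cells, from the subventricular zone along the lateral ventricle, hippocampus Sox2-GFP cells and hippocampus DCX-DsRed cells, with 3 samples each, lettered A to C. Each experiment pooled tissue of 10 dissections, and RNA of 1000 cells was amplified with the SuperAmp protocol, labelled with the dye Cy3 and hybridised to 1 Agilent array. No unsorted sample was analysed here. Nothing in the labels states that samples A to C came from different pools of mice, so the p-values reflect sample-to-sample spread that may be purely technical. Because the samples are bulk RNA, fewer cells of a type and less RNA per cell cannot be told apart.

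Notch signalling passes between touching cells. A Delta or Jagged ligand on one cell pulls on a Notch receptor on the next, ADAM proteases and then the gamma-secretase complex cut the receptor, and the freed intracellular domain joins Rbpj and a Mastermind-like protein on DNA to switch on Hes and Hey genes. Hes and Hey proteins repress proneural genes and so hold neural stem cells back from becoming neurons, while cells that begin to differentiate commonly display Delta ligands. In the adult hippocampus and SVZ, Notch activity is known for maintaining the pool of stem cells.

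Values below are log2 of the processed signal minus the 75th percentile of the same array, so 0 is that percentile and a difference of 1 is a doubling. Levels are comparable between arrays for 1 gene but not between genes, since probes differ in brightness. A gene was called where limma's adjusted p, over all genes tested, was below 0.05. Of the 36 members, 30 were well above background on all 9 arrays. The other 6 were Jag1, Adam10, Rbpj, Hey1, Nrarp and Itch, the least of them on 4 arrays.

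The sorting genes did not follow the sort. Sox2 read 0.92, 2.07 and 2.28 in SVZ Sox2-GFP samples A to C, 0.94, 0.92 and -0.95 in hippocampus Sox2-GFP samples, and 1.30, 1.71 and 1.70 in hippocampus DCX-DsRed samples. Dcx read 2.57, 3.05 and -2.36 in SVZ Sox2-GFP, -0.20, -0.77 and -2.88 in hippocampus Sox2-GFP, and -1.29, -0.78 and 1.28 in hippocampus DCX-DsRed. Sox2 in DCX-DsRed cells thus lay above all hippocampus Sox2-GFP samples and within the SVZ range, and Dcx did not separate the sorts either. Sample C of hippocampus Sox2-GFP stood apart, with correlations of 0.816 and 0.783 with its partners A and B over all genes, against 0.919 between those 2. For 24 of the 36 members its value was over 1 log2 unit from the mean of A and B (66.7%), a distance that 44.7% of all genes reached. It was the lowest of the 9 arrays for 14 of the 36 members, beside 32.4% of all genes, and the highest for 10, beside 15.9%, so results that involve hippocampus Sox2-GFP are given below with and without it where that matters.

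**Figure D1:**
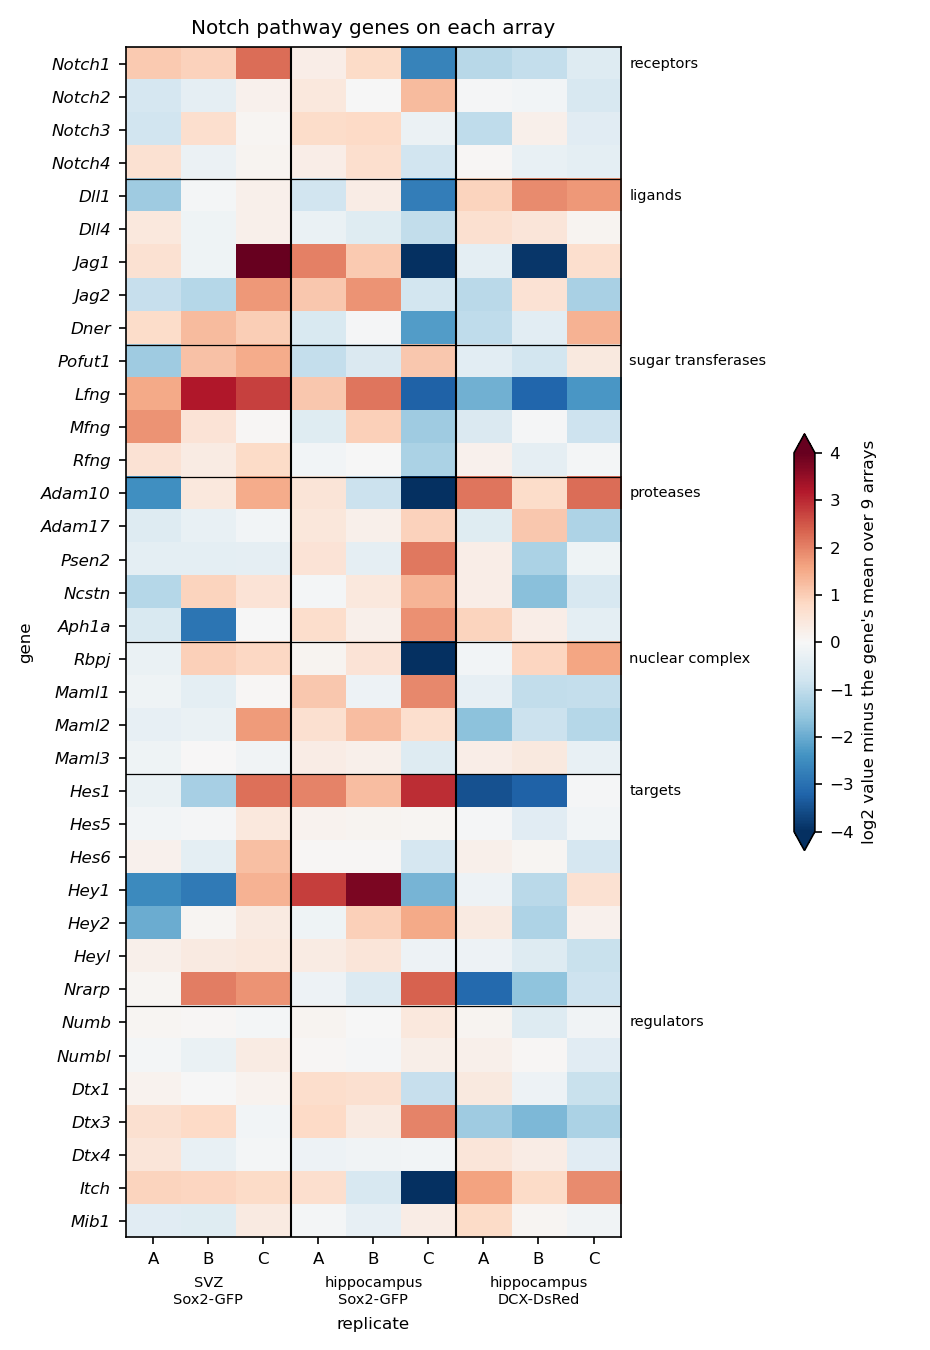
Values of the 36 tested Notch pathway genes on the 9 arrays (columns: SVZ Sox2-GFP, hippocampus Sox2-GFP and hippocampus DCX-DsRed, replicates A to C), each shown as the log2 value minus the gene's mean over all 9 arrays, with horizontal lines between roles. Colours stop at 4 log2 units either way, and hippocampus Sox2-GFP sample C holds the lowest value for 14 genes and the highest for 10, where it holds the lowest for 32.4% and the highest for 15.9% of all genes.

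Hippocampal Sox2-GFP cells were first set against hippocampal DCX-DsRed cells, the comparison of a stem cell reporter with a newborn neuron reporter in the same tissue. One member was called: Dtx3 rose. No member was called lower. Over all genes, 437 were called higher (1.76%) and 356 lower (1.43%), so the members' 1 of 36 is near the background. At an unadjusted p below 0.05 stood 8 of the 36 members, against 16.9% of all genes. The values of the 3 Sox2-GFP samples lay wholly above those of the 3 DCX-DsRed samples for 8 members, where 11.5% of all genes did, and wholly below for 4 members, where 13.2% did. The 8 were Dtx3, Hes1, Hes5, Heyl, Maml1, Maml2, Notch2 and Nrarp, and the 4 were Adam10, Dll1, Dll4 and Itch. The median difference of the members was 0.36, with 25 of 36 above 0, beside a median of -0.08 over all genes.

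SVZ Sox2-GFP cells were then set against hippocampal Sox2-GFP cells, the comparison of stem cell regions under 1 reporter. No member was called by limma, and 3 of 36 stood at an unadjusted p below 0.05, against 10.8% of all genes. Over all genes, 11 were called higher (0.0442%) and 89 lower (0.357%). The groups did not overlap for 5 members on the higher side (Dll4, Dner, Itch, Notch1 and Rfng), beside 8.85% of all genes, and for 2 on the lower side (Adam17 and Aph1a), beside 8.06%. The median difference of the members was -0.03, against 0.08 over all genes.

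The third comparison set SVZ Sox2-GFP cells against hippocampal DCX-DsRed cells, which differ in region as well as reporter. Again limma called no member, and 7 of 36 stood at an unadjusted p below 0.05, against 13.7% of all genes. Over all genes, 135 were called higher (0.542%) and 244 lower (0.98%). The groups did not overlap for 8 members on the higher side (Dtx3, Heyl, Lfng, Maml2, Mfng, Notch1, Nrarp and Rfng), beside 10.7% of all genes, and for 1 on the lower side (Dll1), beside 10.4%. The members' median difference was 0.36, against -0.02 over all genes. These 3 comparisons share samples pairwise, so their values are given side by side and are not independent of each other.

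The arrays lay on 3 slides, and many calls differed when the slide entered the fit as a block. For SVZ against DCX-DsRed, where slides 1 and 3 both hold each group, the block called Lfng at 4.67 (adjusted p = 0.0201) and Nrarp at 2.59 (0.0447). Nrarp was well above background on 1 of the 3 DCX-DsRed arrays, so its differences from DCX-DsRed are uncertain in size. Hippocampus Sox2-GFP samples A and B were alone on slide 2, so in both comparisons of that group the block leaves an arm of 1 sample, sample C, which is assumed to vary like the other groups. The slide and the loss of samples A and B cannot be told apart there, and the values describe sample C. Against DCX-DsRed they were 3.45 for Dtx3 (adjusted p = 0.0219), 3.09 for Nrarp (0.0483) and -4.87 for Dll1 (0.0184). The signs of Lfng and Notch1 turned, to -1.32 beside 2.47 without the block for Lfng and to -2.17 beside 0.32 for Notch1, and neither was called. For SVZ against hippocampus Sox2-GFP they were 4.26 for Notch1 (0.0139), 3.64 for Dner (0.028), 6.00 for Lfng (0.0112) and 1.83 for Rfng (0.0418). Adam10, Rbpj and Itch also passed in one or both of these comparisons, but their probes were not well above background in sample C, so no value is given for them.

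**Figure D2:**
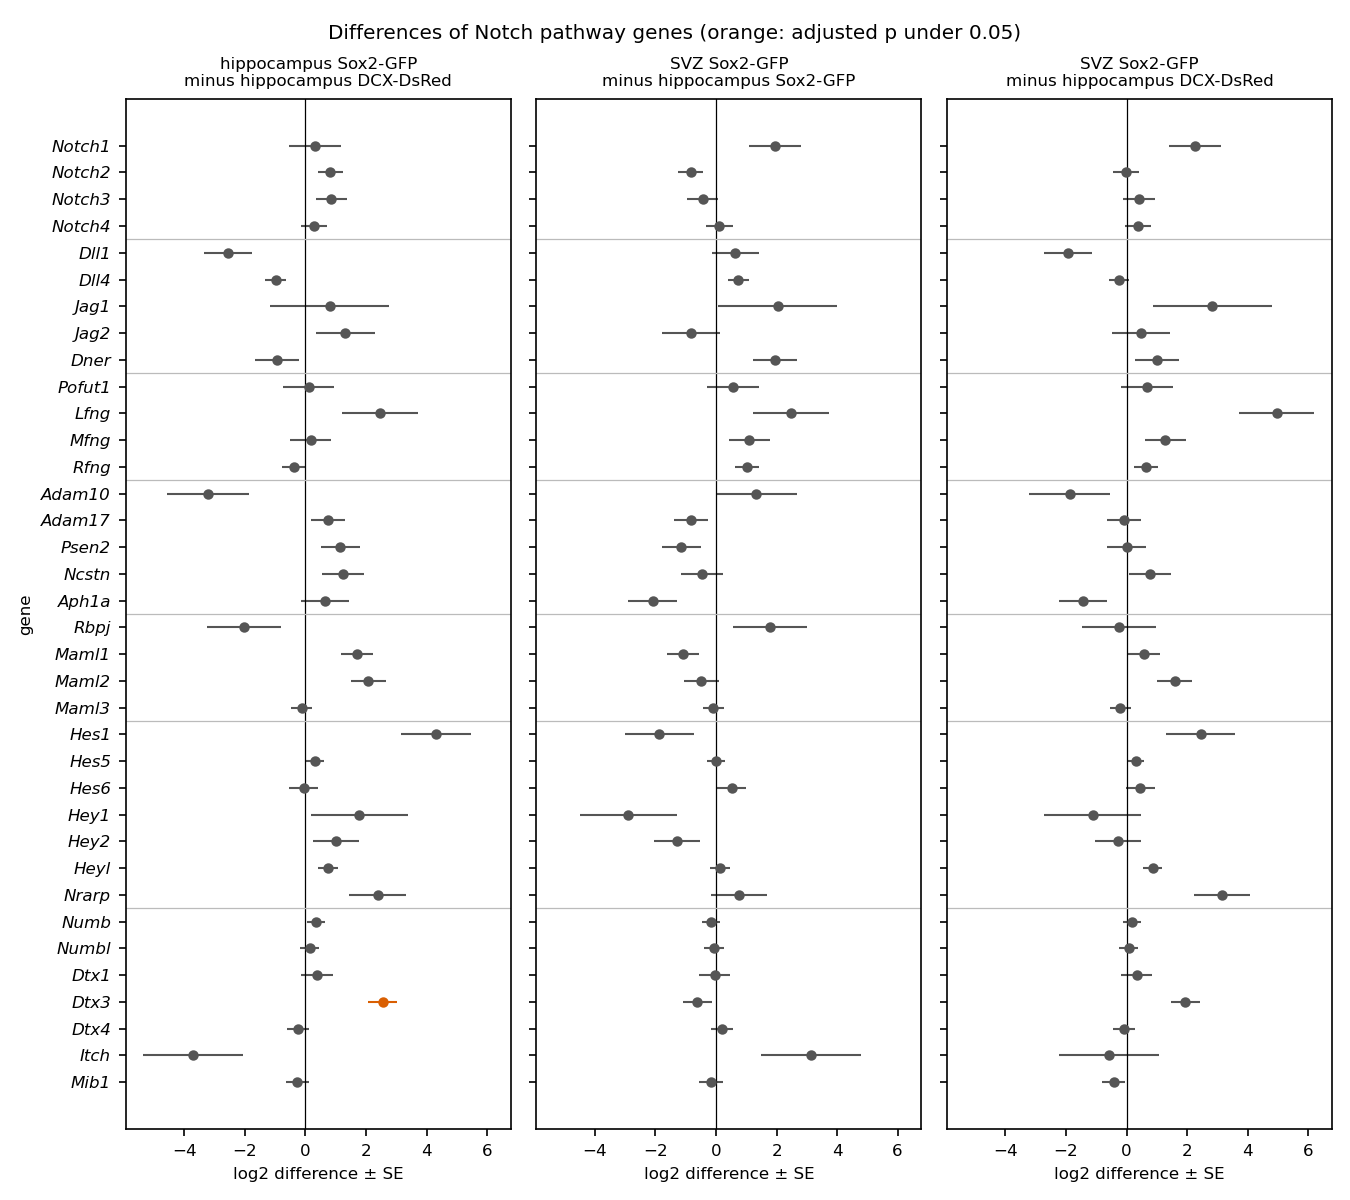
Difference of each tested Notch pathway gene in the 3 comparisons (log2, point) with its standard error from limma (bar), grouped by role from receptors at the top to regulators at the bottom. Dtx3 in the left panel, at 2.55, is the one gene with an adjusted p below 0.05.

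Among the 4 receptors no member was called in any comparison. Notch1, a receptor needed to maintain adult neural stem cells, read -1.14, -1.24 and 0.07 in SVZ Sox2-GFP, -1.91, -1.40 and -4.84 in hippocampus Sox2-GFP, and -3.29, -3.13 and -2.68 in hippocampus DCX-DsRed. All SVZ values lay above all values of both hippocampal groups, while the 2 hippocampal groups overlapped because of sample C. The SVZ difference was 2.26 ± 0.85 (SE) against DCX-DsRed (adjusted p = 0.283) and 1.95 ± 0.85 against hippocampus Sox2-GFP (adjusted p = 0.463). Without hippocampus Sox2-GFP sample C the first kept its size, at 2.26, and its adjusted p was 0.0385, whereas the second was 0.88, and without sample B the second was 2.61. A second Notch1 probe gave 3.13 and 2.75 for the same pair of differences, in the same direction.

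Notch2, a receptor known for keeping hippocampal and SVZ stem cells quiescent, read -0.15, 0.18 and 0.71 in SVZ Sox2-GFP, 0.96, 0.51 and 1.78 in hippocampus Sox2-GFP, and 0.49, 0.41 and -0.12 in hippocampus DCX-DsRed. The hippocampal groups were separate by a narrow margin, with a difference of 0.82 ± 0.42 (adjusted p = 0.376). Its other 2 probes gave larger differences in the same direction, 3.23 and 4.28, with adjusted p-values of 0.114 and 0.0749 over all probes. With the mean over its 3 probes in place of the brightest, Notch2 differed by 2.78 and was called (adjusted p = 0.0432), so its call depended on the choice of probe. Notch3, better known from vessel mural cells, read -1.72, -0.28 and -0.87 in SVZ Sox2-GFP, -0.21, -0.16 and -1.17 in hippocampus Sox2-GFP, and -1.97, -0.75 and -1.39 in hippocampus DCX-DsRed, with overlap between all groups. Notch4, an endothelial receptor, ranged from -2.06 to -0.62 with overlap throughout.

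The ligands with the smallest p-values were Dll1 and Dll4, and both lay lower in hippocampal Sox2-GFP cells than in DCX-DsRed cells on every array. Dll1, the Delta ligand of differentiating neural progenitors, read -3.25, -1.91 and -1.61 in SVZ Sox2-GFP, -2.58, -1.53 and -4.59 in hippocampus Sox2-GFP, and -0.93, 0.05 and -0.10 in hippocampus DCX-DsRed. All 6 Sox2-GFP samples were below all 3 DCX-DsRed samples, and the 2 Sox2-GFP groups overlapped. The difference from DCX-DsRed was -2.57 ± 0.79 in hippocampus Sox2-GFP (adjusted p = 0.14) and -1.93 ± 0.79 in SVZ Sox2-GFP (adjusted p = 0.327). Leaving out hippocampus Sox2-GFP sample C made the first -1.73 (adjusted p = 0.214) and leaving out sample B made it -3.26 (0.0891), and the only array pair on a shared slide, the 2 C samples, gave -4.49.

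Dll4, the Delta ligand best known from sprouting vessels, read 1.06, 0.46 and 0.84 in SVZ Sox2-GFP, 0.37, 0.16 and -0.37 in hippocampus Sox2-GFP, and 1.28, 1.10 and 0.74 in hippocampus DCX-DsRed. Hippocampal Sox2-GFP was lower than both other groups on all arrays, by -0.99 ± 0.34 against DCX-DsRed (adjusted p = 0.186), while SVZ stood 0.73 ± 0.34 above it (adjusted p = 0.49). Of 13 endothelial and mural markers 8 averaged higher and 5 lower in hippocampal Sox2-GFP cells against DCX-DsRed cells, 2 were called, Tek and Vtn, both higher, and the array means overlapped, with means of the list of -2.49 to -0.79 in Sox2-GFP and -3.19 to -2.27 in DCX-DsRed. Their part in the Dll4 values was not tested.

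Dner, a non-canonical Notch ligand of neurons, read -1.30, -0.78 and -1.06 in SVZ Sox2-GFP, -2.63, -2.09 and -4.27 in hippocampus Sox2-GFP, and -3.06, -2.45 and -0.65 in hippocampus DCX-DsRed. On this probe the SVZ samples were above all hippocampal Sox2-GFP samples, with a difference of 1.95 ± 0.74 (adjusted p = 0.4), and 1.31 without sample C. A dim second Dner probe, well above background on 2 SVZ arrays and no hippocampal array, was not tested. On it SVZ samples A to C read 0.25, -3.96 and -8.15, the last within the range of hippocampus Sox2-GFP. Both Jagged ligands overlapped between all groups. The tested Jag1 probe ranged from -8.54 to 0.21 and was above background on 2 arrays of each hippocampal group, which left standard errors of 1.96. A brighter Jag1 probe, left out because its spot on SVZ sample B carried an outlier flag, read 0.25 and 1.19 in SVZ samples A and C, -1.39, -0.54 and -1.75 in hippocampus Sox2-GFP, and -1.60, -0.99 and -0.39 in hippocampus DCX-DsRed. On that probe both SVZ values lay above the 6 hippocampal ones. Jag2 ranged from -4.13 to -1.03.

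Fringe enzymes add a sugar to Notch that commonly favours Delta over Jagged signalling, and Pofut1 adds the fucose that they extend. All 4 of these genes averaged higher in SVZ Sox2-GFP than in both hippocampal groups, by 0.57 to 2.48 against hippocampus Sox2-GFP and by 0.65 to 4.96 against DCX-DsRed, but none was called. Without hippocampus Sox2-GFP sample C the Lfng difference of 2.48 became 0.87, and a second Pofut1 probe gave -0.60 against DCX-DsRed. Lfng had the largest difference of the 36 tested members in these 3 comparisons. It read 1.01, 2.69 and 2.25 in SVZ Sox2-GFP, 0.60, 1.63 and -3.73 in hippocampus Sox2-GFP, and -2.42, -3.68 and -2.82 in hippocampus DCX-DsRed. Of the 6 Sox2-GFP samples 5 were above every DCX-DsRed sample, and hippocampus Sox2-GFP sample C was below them all. SVZ exceeded DCX-DsRed by 4.96 ± 1.25, or 31.1-fold (adjusted p = 0.112).

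The Lfng result depended on sample C. Without it, the SVZ difference from DCX-DsRed stayed at 4.96 with an adjusted p of 0.00786, and hippocampus Sox2-GFP exceeded DCX-DsRed by 4.09 (adjusted p = 0.0224), against 2.47 ± 1.25 with it (adjusted p = 0.369) and 1.41 without sample B. Within slides, SVZ exceeded DCX-DsRed by 4.06 on slide 1 and 5.29 on slide 3. On slide 3 hippocampus Sox2-GFP sample C differed from DCX-DsRed sample C by -0.91. The mean of 11 astrocyte and radial glia markers was 2.55 to 3.78 in SVZ Sox2-GFP, 2.74 and 2.98 in hippocampus Sox2-GFP samples A and B but -1.15 in sample C, and 1.20 to 1.66 in DCX-DsRed. The 11 did not act as one: Sox9 was 2.49 in sample C, beside 2.38 in both A and B, while Slc1a3 was -7.20 in sample C, beside 2.51 and 3.06. None of the 11 was called in any comparison, and their part in the Lfng values was not tested.

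Mfng read 0.68, -0.55 and -1.06 in SVZ Sox2-GFP, -1.58, -0.14 and -2.52 in hippocampus Sox2-GFP, and -1.67, -1.16 and -1.94 in hippocampus DCX-DsRed. SVZ lay above DCX-DsRed on all arrays, by 1.28 ± 0.67 (adjusted p = 0.464). Rfng read 1.94, 1.69 and 2.14 in SVZ Sox2-GFP, 1.26, 1.35 and 0.10 in hippocampus Sox2-GFP, and 1.54, 1.00 and 1.30 in hippocampus DCX-DsRed. Every SVZ value of Rfng was above all 6 hippocampal values, with a difference of 1.02 ± 0.41 from hippocampus Sox2-GFP (adjusted p = 0.423). On its brightest probe Pofut1 ranged from -1.58 to 1.31, with overlap between all groups. On its other probe all hippocampus Sox2-GFP values lay below all DCX-DsRed values, with a difference of -0.67 (adjusted p = 0.753 over all probes).

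Of the receptor-cutting proteases, Adam10, the main sheddase of ligand-bound Notch, read -5.05, -2.19 and -1.13 in SVZ Sox2-GFP, -2.08, -3.47 and -6.82 in hippocampus Sox2-GFP, and -0.46, -1.88 and -0.38 in hippocampus DCX-DsRed. Hippocampal Sox2-GFP was below DCX-DsRed on all arrays, by a difference of -3.22 ± 1.34 (adjusted p = 0.276), which was -1.87 without sample C, an array where Adam10 was not well above background. The 3 gamma-secretase members averaged higher in hippocampal Sox2-GFP cells than in the DCX-DsRed cells, by 0.66 to 1.24, and none was called. Without sample C of hippocampus Sox2-GFP the 3 differences were 0.20 for Aph1a, 0.47 for Psen2 and 0.85 for Ncstn. Of further subunits, Psenen was lower in all 3 hippocampal Sox2-GFP samples, by a difference of -0.52 (adjusted p = 0.498). Aph1b and Aph1c were higher in all 3, by 0.92 (adjusted p = 0.294) and 3.30 (0.237). Psen2, a catalytic subunit, read -0.35, -0.36 and -0.31 in SVZ Sox2-GFP, 0.59, -0.33 and 2.16 in hippocampus Sox2-GFP, and 0.30, -1.21 and -0.13 in hippocampus DCX-DsRed, and overlapped between all groups. Aph1a, a scaffold subunit, read -0.87, -3.21 and -0.28 in SVZ Sox2-GFP, 0.44, -0.07 and 1.56 in hippocampus Sox2-GFP, and 0.61, 0.00 and -0.65 in hippocampus DCX-DsRed. SVZ was below hippocampus Sox2-GFP for Aph1a by a difference of -2.10 ± 0.79 (adjusted p = 0.4), and its other probe differed by -0.50. On the tested probe the difference without SVZ sample B was -1.22, and without SVZ sample C it was -2.68. Ncstn, the complex's substrate receptor, ranged from -2.66 to 0.35, and the sheddase Adam17 from -3.35 to -1.04.

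In the nuclear complex no member was called. Of the 3 Mastermind-like coactivators, Maml1 and Maml2 did not overlap between the hippocampal groups, beside 11.5% of all genes wholly higher in Sox2-GFP. Maml2 read 0.64, 0.71 and 2.69 in SVZ Sox2-GFP, 1.64, 2.21 and 1.66 in hippocampus Sox2-GFP, and -0.66, 0.12 and -0.17 in hippocampus DCX-DsRed. All 6 Sox2-GFP samples were above all DCX-DsRed samples. The difference was 2.07 ± 0.57 in hippocampus (adjusted p = 0.103), with 1.64 on a second probe, and 1.59 ± 0.57 for SVZ against DCX-DsRed (adjusted p = 0.256). Without SVZ sample C, whose Maml2 value was the highest, the hippocampal difference stayed at 2.07 and was called (adjusted p = 0.0295), and the SVZ difference was 0.91. 

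Maml1 read -2.00, -2.23 and -1.80 in SVZ Sox2-GFP, -0.76, -2.04 and 0.09 in hippocampus Sox2-GFP, and -2.18, -2.81 and -2.80 in hippocampus DCX-DsRed. The hippocampal groups did not overlap, and their difference was 1.69 ± 0.53 (adjusted p = 0.145). Rbpj, the DNA-binding partner of the Notch intracellular domain, read -4.16, -2.96 and -3.07 in SVZ Sox2-GFP, -3.80, -3.36 and -8.38 in hippocampus Sox2-GFP, and -4.03, -3.06 and -2.34 in hippocampus DCX-DsRed. Apart from the -8.38 of sample C, where its probe was not well above background, Rbpj lay within 2 log2 units on all arrays. Its hippocampal difference was -2.04 ± 1.22 with sample C and -0.44 without. On its brightest probe Maml3 ranged from -1.82 to -0.92 and overlapped throughout. A dimmer Maml3 probe was well above background on 1 hippocampus Sox2-GFP array. On it all SVZ values lay above all hippocampus Sox2-GFP values, by 3.48 (adjusted p = 0.443 over all probes), beside -0.09 on the brightest.

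The Hes and Hey genes were grouped with Nrarp, an ankyrin-repeat protein that Notch induces and that dampens Notch, as the pathway's transcriptional output. None of these 7 genes was called. In hippocampal Sox2-GFP cells 6 of the 7 averaged above DCX-DsRed, as did 46.4% of all genes. The exception was Hes6, at -0.06, which was placed here by family and not as a readout of Notch. A second Hes6 probe gave 0.47. On the higher side 4 of the 7 did not overlap with DCX-DsRed, as was so for 11.5% of all genes. Among those 4, Heyl was separate by under 0.01 and Hes5 was nearly level. Hes1 had the largest difference. It read -0.22, -1.28 and 2.26 in SVZ Sox2-GFP, 2.05, 1.31 and 3.01 in hippocampus Sox2-GFP, and -3.44, -3.16 and 0.02 in hippocampus DCX-DsRed. Hippocampal Sox2-GFP lay above DCX-DsRed on every array, and DCX-DsRed sample C was over 3 log2 units above its partners. The difference was 4.32 ± 1.15, or 19.9-fold (adjusted p = 0.0931). Without DCX-DsRed sample C it was 5.42, or 42.9-fold (adjusted p = 0.0589), and without DCX-DsRed sample A it was 3.69. With replicate letters as a block it was called (adjusted p = 0.0273), though the letters did not pair the samples. Without sample C of hippocampus Sox2-GFP it was 3.87 (adjusted p = 0.19), and the C samples on slide 3 differed by 2.99. SVZ Sox2-GFP overlapped both other groups.

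Nrarp read -3.90, -1.90 and -2.18 in SVZ Sox2-GFP, -4.16, -4.51 and -1.59 in hippocampus Sox2-GFP, and -7.06, -5.58 and -4.80 in hippocampus DCX-DsRed. All 6 Sox2-GFP samples were above all 3 DCX-DsRed samples, of which 1 was well above background. The difference was 3.15 ± 0.94 for SVZ (adjusted p = 0.172) and 2.39 ± 0.94 for hippocampus Sox2-GFP (adjusted p = 0.246). Without hippocampus Sox2-GFP sample C the second was 1.48 (adjusted p = 0.434), and without DCX-DsRed sample A the pair were 2.53 and 1.77.

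Heyl read 1.48, 1.63 and 1.70 in SVZ Sox2-GFP, 1.61, 1.76 and 1.07 in hippocampus Sox2-GFP, and 1.07, 0.77 and 0.40 in hippocampus DCX-DsRed. All 6 Sox2-GFP samples were above all 3 DCX-DsRed samples, by under 0.01 at the closest, with differences of 0.86 ± 0.33 in SVZ (adjusted p = 0.289) and 0.74 ± 0.33 in hippocampus (adjusted p = 0.303), though a dim second probe gave -0.40 in hippocampus. Hes5, the repressor most used as a readout of Notch in neural stem cells, is described here after its values were seen, because it was nearly level. It read 4.63, 4.70 and 5.17 in SVZ Sox2-GFP, 4.87, 4.83 and 4.83 in hippocampus Sox2-GFP, and 4.69, 4.29 and 4.62 in hippocampus DCX-DsRed. Hes5 was thus far above each array's 75th percentile in all groups, with no saturated spot, and its differences were 0.31 ± 0.29 between hippocampal groups (adjusted p = 0.651) and -0.01 ± 0.29 between regions. Hes6, which antagonises Hes1, ranged from 0.72 to 2.60. Hey2 ranged from -4.28 to -0.79, and Hey1 from -7.96 to -1.35, with Hey1 above background on 4 arrays. These 3 overlapped between all groups.

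**Figure D3:**
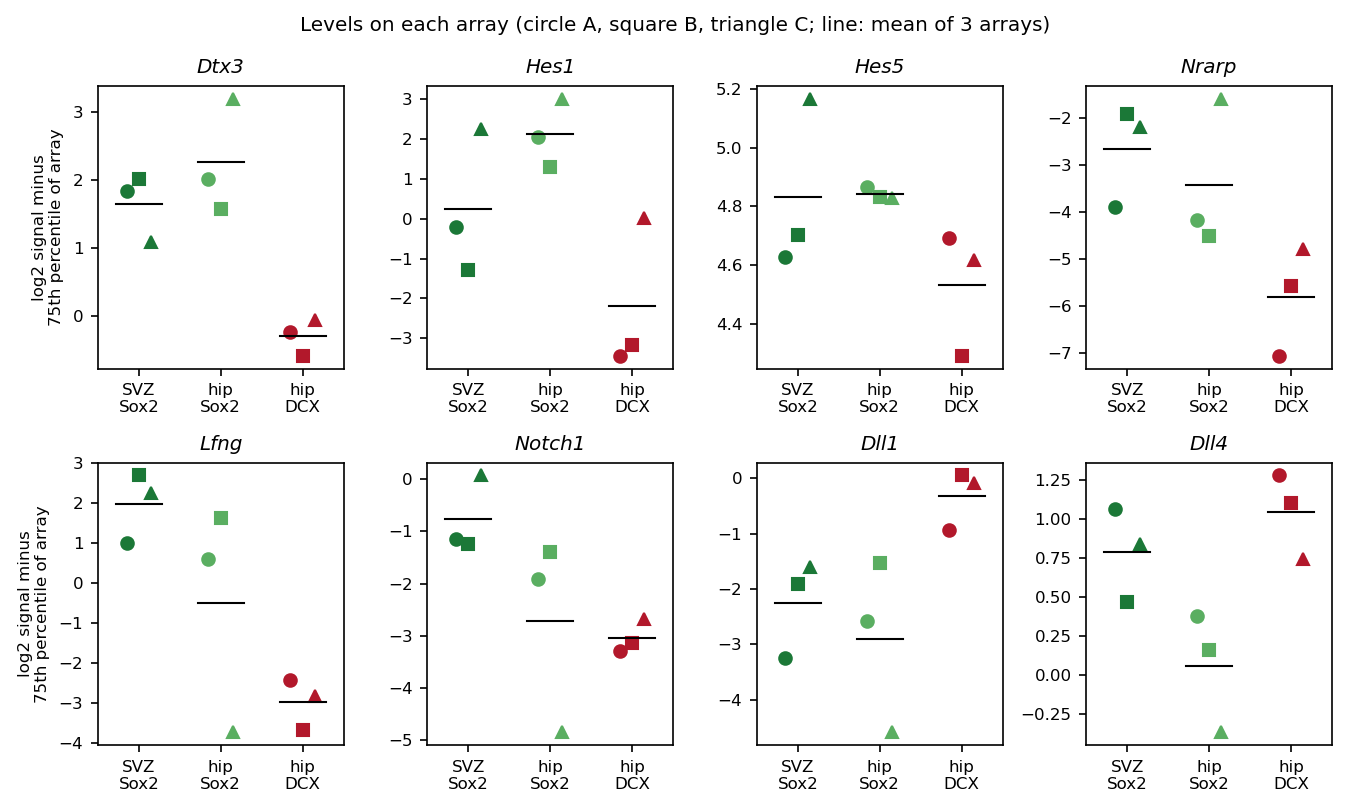
Levels of 8 Notch pathway genes on each array (log2 signal minus the array's 75th percentile; vertical scales differ between panels), in SVZ Sox2-GFP, hippocampus Sox2-GFP and hippocampus DCX-DsRed, with a line at the mean of 3 arrays. Dll1 sits above both Sox2-GFP groups in DCX-DsRed, Lfng and Notch1 fall to -3.73 and -4.84 in hippocampus Sox2-GFP sample C, and Hes5 stays between 4.29 and 5.17.

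Promoters were searched for the letters that Rbpj binds. RefSeq windows of 300 bases, 250 before to 50 after a gene's start (GRCm38.p6), were found for 29 of the 37 members, 36 windows in all. Dtx3, Dtx4, Hes1, Hey1, Heyl, Itch, Mfng and Mib1 were not searched. The searched core was TGGGAA on either strand, and 9 of the 36 windows held it (25.0%), against 25.56% of all 32851 mouse windows, a share close to that of all windows. Hes5 and Lfng held 2 copies each and Nrarp none. Their windows are shown because Hes5 was level, while Lfng and Nrarp had the largest SVZ differences from DCX-DsRed. Capitals mark the core, read as TTCCCA where it lies on the other strand. The windows are Hes5 at chr4:154960673-154960972, Lfng at chr5:140607091-140607390 and Nrarp at chr2:25180508-25180807, all on the plus strand.
Hes5: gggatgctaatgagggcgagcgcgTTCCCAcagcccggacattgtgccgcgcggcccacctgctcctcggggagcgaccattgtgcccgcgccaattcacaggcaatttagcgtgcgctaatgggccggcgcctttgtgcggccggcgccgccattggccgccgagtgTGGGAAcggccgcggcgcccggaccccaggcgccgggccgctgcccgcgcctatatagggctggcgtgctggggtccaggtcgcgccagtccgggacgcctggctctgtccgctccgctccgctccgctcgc
Lfng: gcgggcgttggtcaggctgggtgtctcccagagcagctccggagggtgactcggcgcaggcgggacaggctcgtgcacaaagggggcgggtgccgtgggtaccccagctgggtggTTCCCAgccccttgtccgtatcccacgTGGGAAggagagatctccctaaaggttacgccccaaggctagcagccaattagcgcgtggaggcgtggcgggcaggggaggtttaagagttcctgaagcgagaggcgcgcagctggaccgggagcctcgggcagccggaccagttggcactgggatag
Nrarp: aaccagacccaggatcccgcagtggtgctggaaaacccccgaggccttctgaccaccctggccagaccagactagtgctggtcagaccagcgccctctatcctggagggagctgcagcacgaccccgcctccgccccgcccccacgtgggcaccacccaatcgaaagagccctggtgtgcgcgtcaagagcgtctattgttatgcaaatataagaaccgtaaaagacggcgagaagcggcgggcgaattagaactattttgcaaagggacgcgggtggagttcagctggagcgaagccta
A match describes letters and not binding, and no match says only that these letters are not in the window.

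Regulators of trafficking and ubiquitination held the one called member. Dtx3, a Deltex-family ubiquitin ligase, read 1.84, 2.01 and 1.09 in SVZ Sox2-GFP, 2.01, 1.58 and 3.19 in hippocampus Sox2-GFP, and -0.23, -0.58 and -0.06 in hippocampus DCX-DsRed. On this probe all 6 Sox2-GFP samples were above 1 and all DCX-DsRed samples below 0. Dtx3 averaged 2.26 ± 0.83 in hippocampus Sox2-GFP and -0.29 ± 0.27 in hippocampus DCX-DsRed (SD, n = 3 each), a difference of 2.55 ± 0.48, or 5.84-fold (adjusted p = 0.0309). SVZ exceeded DCX-DsRed by 1.93 ± 0.48 (adjusted p = 0.106). A second Dtx3 probe differed by 1.96 in hippocampus, where the groups were separate but the probe was not called (adjusted p = 0.121 over all probes). For SVZ against DCX-DsRed it differed by 0.59, and those groups overlapped on it.

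The Dtx3 call held in 12 of 19 alternative fits, and its difference kept its sign in all of them, from 2.08 to 3.45. It was lost with array median scaling (adjusted p = 0.0605), with only the 2 hippocampal groups (0.062) and with replicate letters as a block (0.0745). Leaving out hippocampus Sox2-GFP sample A (0.0785) or DCX-DsRed samples A (0.105), B (0.112) or C (0.0716) also ended it. It did not rest on the odd sample: without hippocampus Sox2-GFP sample C the difference was 2.08 (adjusted p = 0.0406).

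Itch, a ubiquitin ligase that promotes Notch degradation, read -0.70, -0.74 and -0.83 in SVZ Sox2-GFP, -0.94, -2.24 and -8.45 in hippocampus Sox2-GFP, and 0.02, -0.82 and 0.30 in hippocampus DCX-DsRed. On this probe hippocampal Sox2-GFP was the lowest group on all arrays. Its difference from DCX-DsRed was -3.71 ± 1.65 (adjusted p = 0.306) and became -1.43 without sample C, where the probe was not well above background. The 2 other Itch probes gave -1.11 and -3.50. For SVZ against hippocampus Sox2-GFP those 2 gave -1.53 and 0.98, beside 3.12 on the brightest probe. For SVZ against DCX-DsRed they gave -2.63 and -2.52 (adjusted p = 0.341 and 0.413 over all probes). On both, all SVZ values lay below all DCX-DsRed values, while the groups overlapped on the brightest probe, at -0.59. Numb, an inhibitor of Notch inherited by one daughter cell, read 0.25, 0.24 and 0.10 in SVZ Sox2-GFP, 0.29, 0.16 and 0.62 in hippocampus Sox2-GFP, and 0.30, -0.33 and 0.06 in hippocampus DCX-DsRed. All groups overlapped for Numb, and its hippocampal difference was 0.34 ± 0.30 (adjusted p = 0.618). Its relative Numbl ranged from 0.01 to 0.80, Dtx1 from -1.08 to 0.53, Dtx4 from 3.80 to 4.75 and Mib1, a ligase that ligands need for their endocytosis, from 0.85 to 2.10. Those 4 overlapped between all groups on their brightest probes. A dimmer Mib1 probe was well above background on 3 hippocampus Sox2-GFP arrays and 1 DCX-DsRed array. On it all hippocampus Sox2-GFP values lay above all DCX-DsRed values, with a difference of 2.86 (adjusted p = 0.111 over all probes). For the same comparison the brightest Mib1 probe gave -0.27 and its remaining probe 0.32.

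Different probes of a gene did not always point the same way. Of 14 members with several tested probes, all probes shared a sign for 9 in hippocampus Sox2-GFP against DCX-DsRed, for 10 in SVZ against hippocampus Sox2-GFP, and for 7 in SVZ against DCX-DsRed.

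Further genes of the pathway were also tested. Of 32 further genes of the pathway (other gamma-secretase subunits, Hes paralogs, coactivators and corepressors) 31 were tested and limma called none in any comparison. In each comparison 3 of the 31 stood at an unadjusted p below 0.05. Over all genes the shares were 16.9%, 10.8% and 13.7% in the order of the comparisons above. Of 12 proneural genes and related neuronal factors, several of which Hes proteins repress, 9 were tested and limma called none. In the same order, 2, 1 and 2 of the 9 stood at an unadjusted p below 0.05, beside those same shares of all genes. After their values were seen, Prox1 and Insm1 were singled out. Prox1, a factor of dentate granule neurons, differed by -2.17 ± 0.49 between hippocampal Sox2-GFP and DCX-DsRed cells (adjusted p = 0.0567). Insm1, a factor of neuronal progenitors, differed by 5.06 ± 1.49 between SVZ Sox2-GFP and hippocampal DCX-DsRed cells (adjusted p = 0.168).

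Several cell type marker lists were called in larger part than the Notch genes. Of 9 tested choroid plexus markers 7 were called higher in hippocampal Sox2-GFP cells than in DCX-DsRed cells, with list means of 0.99 to 3.18 in Sox2-GFP and -3.97 to -3.60 in DCX-DsRed, and 4 of 9 were called lower in SVZ Sox2-GFP (list means -3.70 to -2.96) than in hippocampus Sox2-GFP. Of 8 ependymal markers 5 were called higher in hippocampus Sox2-GFP, with list means of -0.45 to 1.28 in Sox2-GFP and -4.90 to -3.46 in DCX-DsRed. Of 10 markers of myelinating oligodendrocytes 5 were called lower in hippocampus Sox2-GFP, with list means of -3.19 to 0.88 in Sox2-GFP and 4.14 to 4.50 in DCX-DsRed. The DCX-DsRed samples were thus the highest in myelin genes, and the mean of 10 neuronal markers was -1.70 to 0.81 in SVZ Sox2-GFP, -2.61 to -0.90 in hippocampus Sox2-GFP and -0.91 to 0.07 in hippocampus DCX-DsRed. Dtx3, Hes1, Maml2, Dll1 and the other members were thus compared between groups that also differed in these markers, and the part of the markers' cell types in the members' values was not tested.

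**Figure D4:**
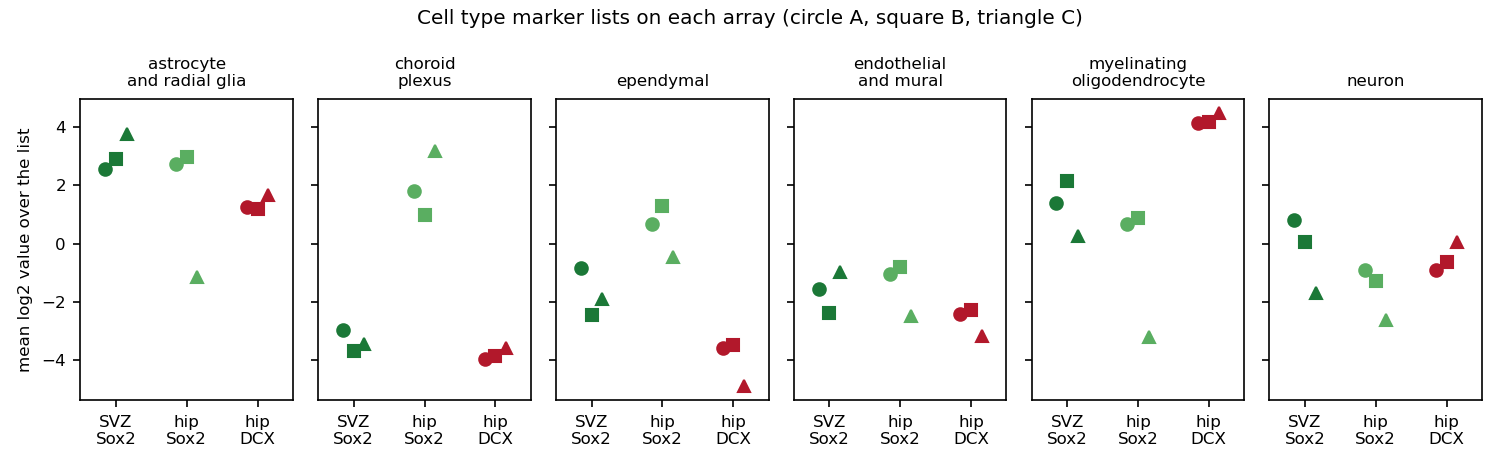
Mean log2 value (relative to the array's 75th percentile) over each of 6 cell type marker lists on each of the 9 arrays, in SVZ Sox2-GFP, hippocampus Sox2-GFP and hippocampus DCX-DsRed. Myelin markers sit at 4.14 to 4.50 in DCX-DsRed, choroid plexus markers are high in hippocampus Sox2-GFP alone of the 3 groups, and astrocyte markers drop to -1.15 in hippocampus Sox2-GFP sample C.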

How the data were processed

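Every file holds 1 array's scanner output, read in 1 colour. Per the file headers, the authors extracted spot intensity with Agilent Feature Extraction 9.5.1.1; the background it subtracted equalled its fitted spatial surface on all spots. The processed intensity was not normalized between arrays. Other deposited columns, per the file headers, flag spots that are well above background, saturated or outliers. The submitters' processing notes name limma.

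Control and outlier-flagged spots were left out, spots of a probe averaged, and log2 intensity taken minus each array's 75th percentile. One file altered by a spreadsheet supplied no gene names. Symbols were updated through RefSeq (GRCm38.p6, names only). Probes well above background on 3 or more arrays were kept, the brightest per gene. All 9 arrays were fitted with limma 3.58.1 (R 4.3.3; 6 residual degrees of freedom; Benjamini-Hochberg over 24899 genes), after testing the code on simulated data. The number of arrays limits precision.

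Full values are given for called members and the 3 smallest p-values of each role. Members and lists were chosen with earlier results of these data known. The alternatives changed scaling, background, filters, probes, slide or replicate block, groups and single samples.

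Replicate letters did not pair the samples: same-letter deviations correlated between -0.04 and 0.12.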

Additional observations from a re-analysis of the deposited data

How the results depend on the processing

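Having 9 arrays limits these comparisons, and dim probes have wide errors. Counts of called members moved with the processing. For hippocampus Sox2-GFP against DCX-DsRed, 1 in the fit reported, the count was 0 with array median scaling and with only the 2 groups compared, 2 with the mean over a gene's probes (Dtx3 and Notch2), and 0 to 2 when 1 sample was left out. For SVZ against hippocampus Sox2-GFP it stayed 0 when 1 sample was left out. For SVZ against DCX-DsRed it was 1 with only the 2 groups (Lfng), and 0 to 3 when 1 sample was left out, the 3 without hippocampus Sox2-GFP sample C (Dtx3, Lfng and Notch1).

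With the slide as a block the counts were 6 (Adam10, Dll1, Dtx3, Itch, Nrarp and Rbpj), 6 (Dner, Itch, Lfng, Notch1, Rbpj and Rfng) and 2 (Lfng and Nrarp). In the first 2 the hippocampus Sox2-GFP arm is sample C alone, assumed to vary like the other groups, and Adam10, Rbpj and Itch were not well above background in it. The members' median difference then became -0.03, 0.36 and 0.23 in the 3 comparisons. Within slide 3 it was 0.29, 0.52 and 0.53, and within slide 1 it was 0.05 for SVZ against DCX-DsRed. Over all genes, the slide block called 2032, 2151 and 795 genes, against 793, 100 and 379 in the fits reported. The replicate block called 1 member in the first comparison (Hes1) and 0 in the others, and 485, 13 and 186 genes in all. With only the 2 groups compared, 574, 8 and 479 genes were called.

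Of 668 repeated values of the member differences given in the text, 21 gained a call, 7, all of Dtx3, lost one, and 9 turned sign in a refit, none of them called; within slide 3, Notch1, Lfng and Hes5 also did. For hippocampus Sox2-GFP against DCX-DsRed, Notch1 turned to -2.17 and Lfng to -1.32 with the slide as a block, and Numb to -0.032 with the mean over its probes, while Notch1 ran from -0.34 (without hippocampus Sox2-GFP sample B) to 1.38 (without sample C) when 1 sample was left out. For SVZ against hippocampus Sox2-GFP, Hes5 turned to 0.077 with the slide as a block and ran from -0.18 to 0.092 when 1 sample was left out. Over all 36 members and settings 122 of 2193 differences turned sign, 23 of them with the slide as a block and 27 within slide 3. The cause of these changes was not tested.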
